A study of Mus musculus with 33 samples.

Results

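The response of Apex1-mutant embryoid bodies (EBs) to retinoic acid (RA) was read from 4 of the 33 libraries of the series. These were the EBs labelled Apex1 knockout, 2 libraries without RA and 2 with RA (EBs + RA). All came from E14TG2a mouse embryonic stem cells (mESCs), an established line, in which a stretch of Apex1 had been deleted with CRISPR/Cas9. RNA-seq counted reads per gene after 8 days of differentiation in suspension. EBs were divided on day 4. One share received 5 µM all-trans RA from then on, and the other stayed in the same medium without it. The deletion, puromycin selection and medium were common to both arms, so RA was the only labelled difference. The Apex1 libraries are technical duplicates of 1 clone, clone 46, so their spread is technical and an effect of the clone and an effect of the gene cannot be told apart. For comparison, 3 control clones (clones 1, 4 and 7, transfected with the empty Cas9 plasmid and labelled wild-type) gave 3 libraries of EBs and 3 of EBs + RA. The Neil1 and Neil2 knockout clones, 3 of each, gave 12 more.

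RA is made from vitamin A by retinol and retinaldehyde dehydrogenases and is cleared by enzymes of the CYP26 family. It binds heterodimers of retinoic acid receptors (RARs) and retinoid X receptors (RXRs) that sit on paired short repeats of DNA, the RA response elements, and turns the neighbouring genes on. In EBs, RA is widely used to end pluripotency, to open the Hox clusters from their 3′ ends and to direct cells toward neural fates of the hindbrain and spinal cord. APEX1, the enzyme deleted here, cuts DNA at abasic sites during base excision repair.

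The targeted gene was examined first. The guides of the deletion, shown 5′ to 3′ with the PAM in capitals because they fix what a gene count can see, matched NCBIM37 as follows.

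upstream guide: tgcccgctaaaagtctcttaTGG

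downstream guide: aagatccggtccaaggctctTGG

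The upstream guide lies at chr14:51546001-51546020 in exon 4 of the 5 exons of Apex1 (chr14:51544643-51546814, plus strand), and the downstream guide at chr14:51546586-51546605 in exon 5. The span between the predicted cuts is 585 bases and holds 483 of the 1422 exon bases of the gene (34%). Apex1 read 60.7 and 87.4 CPM in EBs and 64.9 and 57.0 CPM in EBs + RA, where CPM stands for counts scaled to library size after TMM normalisation. The control libraries read 15.9, 15.5 and 12.8 CPM in EBs and 12.7, 13.9 and 14.4 CPM in EBs + RA, so every library labelled Apex1 knockout lay above every control library. Exons of Tmem55b, a gene on the opposite strand, cover 877 of the 1422 exon bases of Apex1 (61.7%), and 0 of the 545 bases that they leave uncovered lie between the cuts. The libraries do not mark strand. The count of the whole gene therefore does not check the deletion. RA left it within the spread (log2 fold change -0.28, SE 0.17, adjusted p = 0.204).

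RA changed the RNA of the Apex1-mutant EBs widely. Of the 16848 genes tested, 4120 rose and 3355 fell, where a call needed an adjusted p below 0.1 and a log2 fold change beyond 0.5 in either direction. That is 44.4% of the genes tested, with 24.5% raised and 19.9% lowered, and these shares are the background for the counts below. Rises were larger than falls. Their median was 1.35 against -0.94, and 539 genes rose by more than 3 on the log2 scale while 123 fell by that much. Over all genes tested the median was 0.02. In the control clones 45.3% of genes were called (3923 raised, 23.3%, and 3707 lowered, 22%). In the test of the difference between the 2 responses, 10.0% of genes were higher in the Apex1 clone and 5.70% lower. These shares are the background for the counts of higher and lower responses against the controls. The 4 Apex1 libraries held 21523742 to 28597214 counts on genes, within the range of the series. The duplicates of each arm differed by more than counting noise (chi-square over its degrees of freedom 12.27 and 27.65), so neither pair is a copy of 1 library. With 2 libraries an arm an exact permutation test of a single gene cannot go below p = 0.333, and the p-values given here come from the model fitted across all genes, whose spread the control clones share in setting. In bulk RNA, fewer cells of a type and less RNA per cell cannot be told apart.

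The genes that handle retinoids responded almost as one list. Of 16 tested, 13 rose and 0 fell, with a median log2 fold change of 3.19. Cyp26b1, which oxidises and so clears RA, was the largest rise of the whole table among genes with a name and a mean log2 CPM of at least 2. It read 1.23 and 0.657 CPM in EBs and 189 and 245 CPM in EBs + RA (log2 fold change 7.85, SE 0.30, adjusted p = 1.83e-08). Its relative Cyp26a1 read 16.6 and 27.4 CPM in EBs and 552 and 568 CPM in EBs + RA (log2 fold change 4.67, SE 0.28, adjusted p = 7.76e-07). Both were far higher with RA, with no overlap between the arms. Cyp26c1, the third member, rose by 4.53 on the log2 scale to 7.44 and 6.52 CPM, and Dhrs3, which turns retinaldehyde back into retinol, read 5.45 and 5.57 CPM in EBs and 189 and 179 CPM in EBs + RA (log2 fold change 5.06, SE 0.31, adjusted p = 1.2e-06). The supply side rose as well. Stra6, the cell-surface receptor that takes up retinol, rose by 4.33 and the RA-binding protein Crabp2 by 4.21. Aldh1a2, the main RA-making enzyme of the early embryo, read 3.07 and 3.17 CPM in EBs and 31.3 and 31.9 CPM in EBs + RA (log2 fold change 3.34, SE 0.17, adjusted p = 7.67e-08). Aldh1a3 (log2 fold change -0.41, adjusted p = 0.644), Fabp5 (0.51, adjusted p = 0.114) and Bcmo1 (0.24, adjusted p = 0.779) were not called.

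Against the control clones the retinoid list differed by gene rather than as a whole, with 2 of its members higher and 3 lower in the test of the difference between the RA responses (Apex1 minus control, log2). Cyp26a1 was one of the higher ones (difference 2.03, SE 0.32, adjusted p = 0.00262). The control libraries read 99.4, 92.7 and 122 CPM in control EBs and 602, 532 and 822 CPM in control EBs + RA. The levels with RA overlapped between the genotypes, and the levels without RA did not. Crabp1, a second RA-binding protein, was the largest on the other side. It read 25.6 and 19.9 CPM in EBs and 40.5 and 31.0 CPM in EBs + RA in the Apex1 clone and 20.0, 19.9 and 20.0 CPM in control EBs and 214, 242 and 164 CPM in control EBs + RA (difference -2.72, SE 0.25, adjusted p = 0.000102). The RA-making enzymes Aldh1a1 and Aldh1a2 also responded less than in the controls, with differences of -2.03 and -1.0. For Cyp26b1, Dhrs3 and Stra6 the differences were 0.02, 0.28 and 0.05 and were not called.

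**Figure D1:**
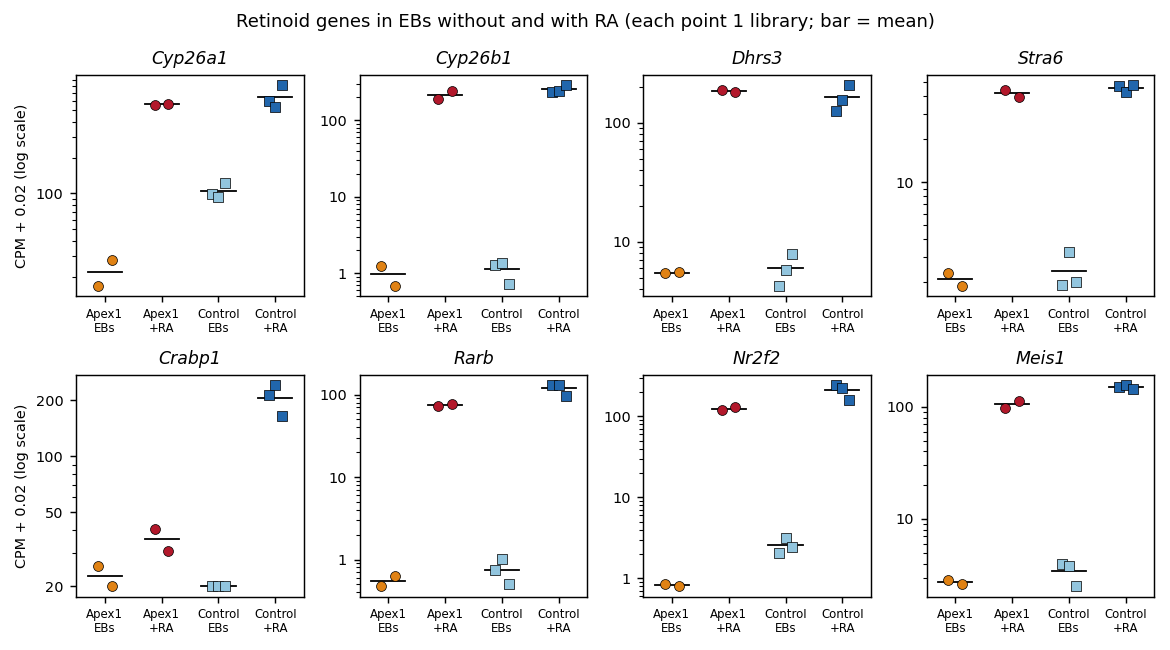
Level of 8 retinoid genes (log axis, CPM with 0.02 added) in each library of Apex1-mutant (circles) and control (squares) EBs without and with RA, with a bar at each group mean. With RA the Apex1 libraries lay near the control libraries for Cyp26b1, Dhrs3 and Stra6, while Crabp1 reached 40.5 and 31.0 CPM against 164 or more in the controls.

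Among the nuclear receptors (15 tested) 7 rose and 5 fell. Rarb, the receptor gene best known as a direct target of RA, read 0.451 and 0.619 CPM in EBs and 73.2 and 76.7 CPM in EBs + RA (log2 fold change 7.11, SE 0.27, adjusted p = 1.27e-08). The orphan receptors Nr2f1 and Nr2f2 (COUP-TFI and COUP-TFII) shared its pattern of under 1 CPM in EBs. Nr2f2 read 0.820 and 0.773 CPM in EBs and 120.2 and 129 CPM in EBs + RA (log2 fold change 7.28, SE 0.28, adjusted p = 1.83e-08), and Nr2f1 reached 69.6 and 65.6 CPM (log2 fold change 7.07, SE 0.43, adjusted p = 1.43e-06). The receptor genes Rara and Rxra rose by 0.86 and 1.31, and Nrip1, which encodes a co-repressor, by 2.41. Rarg fell (144 and 132 CPM to 64.4 and 56.7 CPM, log2 fold change -1.19, SE 0.22, adjusted p = 0.00115). Nr0b1 and Nr5a2, receptors of pluripotent cells, fell too, with log2 fold changes of -2.77 and -1.86. The count of lowered receptors was 3 without RA replicate 1. Rxrb and Nr6a1 were among those not called.

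The promoters of Rarb and Cyp26a1 are shown because among the retinoid, receptor, RA-responsive and Hox lists they alone held a DR5 or DR2 element. The search took direct repeats of half-sites with 5 (DR5) or 2 (DR2) bases between them, on both strands. AGGTCA was accepted as a half-site, so was AGTTCA, and so were their variants GGGTCA and likewise GGTTCA. They were searched in 300-base RefSeq promoters of GRCm38.p6. Of the 90 genes on those lists 59 had a promoter in the table. The 100 bases before each start site follow, with the repeats in capitals.

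Rarb, chr14:16575477-16575576, minus strand: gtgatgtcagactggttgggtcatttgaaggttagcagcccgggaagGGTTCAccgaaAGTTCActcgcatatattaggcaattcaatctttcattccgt

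Cyp26a1, chr19:37697708-37697807, plus strand: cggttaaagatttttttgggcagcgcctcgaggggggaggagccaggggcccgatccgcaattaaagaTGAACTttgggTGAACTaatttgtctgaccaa

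The Rarb element begins at position -53 and reads along the gene. The Cyp26a1 element begins at -32 and reads on the opposite strand. Such a repeat was rare. It was in 120 of all 32851 promoters (0.365%), in 9 of the 2802 promoters of raised genes (0.321%), in 3 of 2234 of lowered genes (0.134%) and in 8 of 6293 of genes not called (0.127%). Of 329 genes raised by more than 3 on the log2 scale 5 held one (1.52%), namely Rarb, Cyp26a1, Ppbp, Slc25a21 and Tinagl1. The share in all promoters counts promoters rather than genes and includes genes that were not tested. A match describes these letters in this window and no binding was measured.

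Nearly every gene of a list of other known RA-responsive genes rose, 19 of 20, with a median of 3.35. Stra8, the RA-induced gatekeeper of meiosis, read 15.0 and 8.47 CPM in EBs and 445 and 508 CPM in EBs + RA (log2 fold change 5.35, SE 0.67, adjusted p = 0.000534). The homeodomain partners of HOX proteins followed, with Meis1 at 2.83 and 2.59 CPM in EBs and 98.3 and 113 CPM in EBs + RA (log2 fold change 5.28, SE 0.20, adjusted p = 1.27e-08) and Meis2 up by 3.56. Tshz1 rose by 4.94 and the endoderm factor Gata6 by 3.25. Prdm1, which encodes a repressor used in germ cells and endoderm, was the one member to fall (log2 fold change -0.81, SE 0.19, adjusted p = 0.00501). Cdx1, an activator of Hox genes that RA induces in the embryo, read 5.00 and 4.48 CPM in EBs and 77.6 and 57.9 CPM in EBs + RA (log2 fold change 3.84, SE 0.25, adjusted p = 5.5e-07), while the control clones read 5.99, 4.61 and 7.17 CPM in control EBs and 6.01, 6.70 and 8.59 CPM in control EBs + RA (difference 3.58, SE 0.31, adjusted p = 6.97e-05). The Neil1 and Neil2 clones raised Cdx1 too, by 3.97 and 4.84.

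Most Hox genes rose. Of the 37 tested (of 39 listed), 31 rose, 0 fell and 6 were not called, with a median of 4.39 against 3.47 in the controls. Hoxc5 and Hoxb2 had the largest folds, 7.33 and 7.31, from 0.205 and 0.0773 CPM and 0.0410 and 0.0773 CPM to 20.1 and 25.9 CPM and 10.6 and 9.73 CPM. Hoxa5 read 0.902 and 1.16 CPM in EBs and 149 and 125 CPM in EBs + RA (log2 fold change 7.04, SE 0.31, adjusted p = 5.83e-08). Hoxa4 rose from 0.533 and 0.387 CPM to 45.9 and 41.8 CPM (6.57), Hoxb4 from 0.451 and 0.464 CPM to 32.2 and 37.5 CPM (6.24) and Hoxa3 from 0.861 and 0.541 CPM to 40.1 and 37.3 CPM (5.78). Hoxb1, a 3′ gene and among the earliest to answer RA in the embryo, rose by 5.61. Hoxb13, at the far 5′ end of its cluster, was the only member of groups 10 to 13 to rise by more than 2. It read 0.615 and 0.541 CPM in EBs and 64.1 and 54.3 CPM in EBs + RA (log2 fold change 6.67, SE 0.50, adjusted p = 3.57e-06) in the clone and 7.20, 10.7 and 16.3 CPM in control EBs + RA.

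The control clones lowered 10 Hox genes and the Apex1 clone 0, and 18 Hox genes had a higher response in the Apex1 clone while 1, Hoxa2, had a lower one. All 10 lowered in the controls belong to groups 9 to 13. Hoxa9 read 2.13 and 3.98 CPM in EBs and 19.2 and 21.2 CPM in EBs + RA (log2 fold change 2.72, SE 0.45, adjusted p = 0.000627). In the controls it read 16.1, 12.8 and 6.23 CPM in control EBs and 0.664, 0.379 and 0.929 CPM in control EBs + RA (difference 6.86, SE 0.63, adjusted p = 0.000157). RA thus moved the gene in opposite directions in the clone and in the controls, and the clone started lower and ended higher. Hoxd9 did the same (1.60 and 3.40 CPM to 12.4 and 7.71 CPM, difference 4.88, SE 0.48, adjusted p = 0.000157), and Hoxc8 rose from 0.656 and 0.850 CPM to 30.1 and 25.0 CPM where the control response was 0.23 (difference 4.96, SE 0.57, adjusted p = 0.000472). Hoxa11, Hoxc10, Hoxc11, Hoxd10, Hoxd11 and Hoxd13 stayed under 7 CPM in all 4 libraries and were not called. Hoxc11 fell by 1.24 with the replicate numbers as a block (adjusted p = 0.0998), and Hoxc11 and Hoxd10 were both called lowered in the 4 Apex1 libraries alone. Hoxa13 (log2 fold change 1.02, SE 0.42, adjusted p = 0.0656) and Hoxc13 (log2 fold change 0.78, SE 0.30, adjusted p = 0.0458) passed narrowly. The spans of 26 of the 39 Hox genes overlap another gene, 13 of them one on the opposite strand, so without strand reads of neighbours cannot be told apart.

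**Figure D2:**
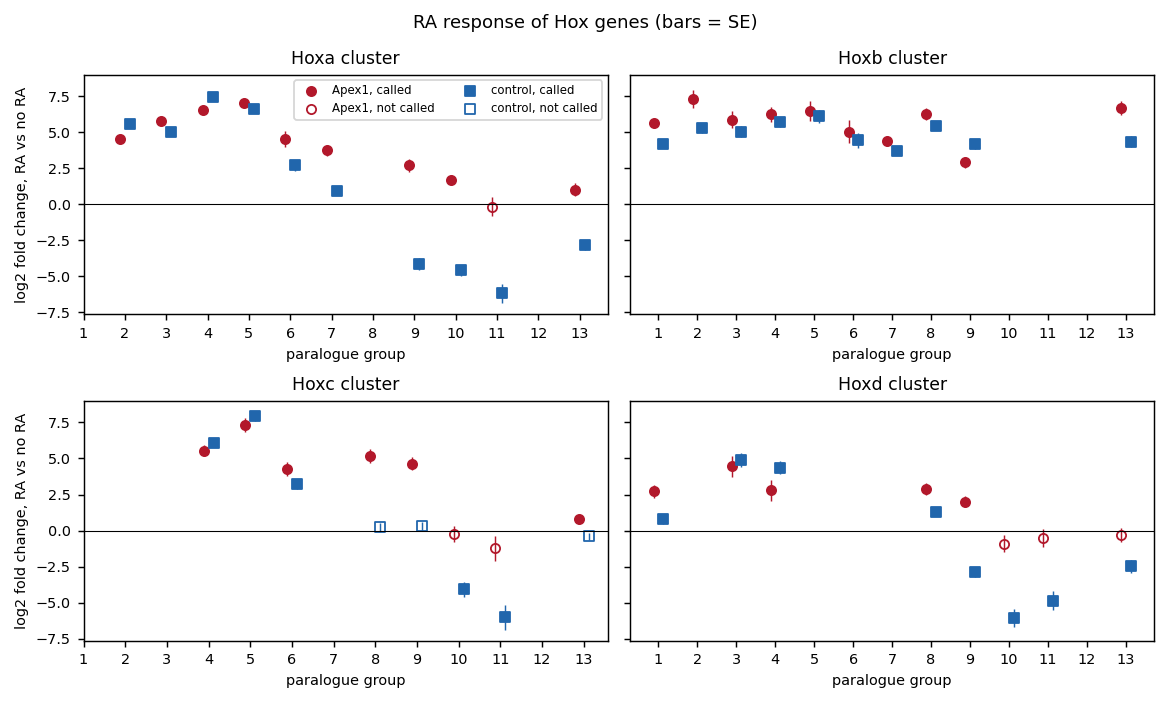
Log2 fold change of the Hox genes reported here with RA against without RA, by cluster and paralogue group, in the Apex1 clone (circles) and the control clones (squares), with bars for the SE and open symbols where not called. Groups 1 to 8 lay above 0 in both, and from group 9 on most control points lay below 0, as for Hoxa9 (2.72 in the clone and -4.14 in the controls).

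Genes of the late epiblast and the primitive streak were among those that fell. Otx2, a homeobox gene of the epiblast and the anterior brain, was the largest fall among named genes of that expression level. It read 98.8 and 108 CPM in EBs and 1.04 and 0.837 CPM in EBs + RA (log2 fold change -6.79, SE 0.18, adjusted p = 6.95e-10). Fgf15 and Fgf5, growth factors of early embryos, and Vrtn had log2 fold changes of -5.56, -4.38 and -5.52. Fgf15, for example, went from 48.4 and 53.5 CPM to 0.995 and 1.15 CPM. Tdgf1, which encodes the Nodal co-receptor CRIPTO, read 699 and 687 CPM in EBs and 23.1 and 22.7 CPM in EBs + RA (log2 fold change -4.92, SE 0.31, adjusted p = 1.78e-06). In the list of formative epiblast and Nodal genes 11 of 17 fell and 1, Sox4, rose. Trh fell from 655 and 776 CPM to 63.6 and 42.7 CPM and the methyltransferase gene Dnmt3b from 318 and 341 CPM to 41.9 and 50.8 CPM. Of the streak and early mesoderm genes 10 of 24 fell and 8 rose. Brachyury (T), the streak factor, read 28.0 and 34.4 CPM in EBs and 1.08 and 1.15 CPM in EBs + RA (log2 fold change -4.80, SE 0.34, adjusted p = 2.02e-06), and Mixl1 and Evx1 had log2 fold changes of -4.33 and -4.78. Msgn1 had 17 counts in EBs and 0 with RA, at least 5.82-fold lower. The largest rises in that list were those of Foxc2, Tbx18 and Meox1, factors of paraxial mesoderm and its derivatives, at 7.18, 6.00 and 5.20. Foxc2 went from 0.0410 and 0.503 CPM to 42.5 and 39.5 CPM. Slc7a3 and the FGF-feedback gene Spry4 were also among the 10 largest falls, at -4.62 and -4.56.

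Pluripotency genes fell, but less far than in the controls. In the list of naive pluripotency genes 20 of 24 fell, 2 rose and 2 were not called. Their median was -1.67 against -3.61 in the control clones, where 23 fell, and 21 of the 24 responses were higher in the Apex1 clone (0 lower). Pou5f1, which encodes OCT4, read 697 and 829.9 CPM in EBs and 171 and 127 CPM in EBs + RA (log2 fold change -2.36, SE 0.20, adjusted p = 4.47e-06). The control libraries read 422, 406 and 407 CPM in control EBs and 12.6, 17.2 and 20.1 CPM in control EBs + RA (difference 2.27, SE 0.25, adjusted p = 0.000294). With and without RA both Apex1 libraries lay above all 3 control libraries. Nanog read 517 and 489 CPM in EBs and 169 and 126 CPM in EBs + RA and 11.3, 22.3 and 15.4 CPM in control EBs + RA (difference 2.69, SE 0.33, adjusted p = 0.000686). In EBs + RA both Apex1 libraries lay above all 3 control libraries for 22 of the 24 genes, and in EBs for 18, against 25.7% and 27.7% of all genes tested. Tdgf1, Fgf4 and Tcl1 fell furthest, at -4.92, -3.91 and -3.60. Sox2, counted with the neural stem genes, also fell (473 and 575 CPM to 109 and 98.9 CPM, log2 fold change -2.33, SE 0.30, adjusted p = 0.000195). The 2 that rose were Tbx3 (log2 fold change 1.27, SE 0.23, adjusted p = 0.000923) and Zscan4c, a marker of a rare early-embryo-like state of mESCs. Zscan4c read 18.7 and 14.8 CPM in EBs and 129 and 148 CPM in EBs + RA (log2 fold change 3.05, SE 0.47, adjusted p = 0.000983), and control EBs + RA read 17.9, 21.6 and 52.3 CPM. It belongs to a family of near-identical copies, and reads with several alignments were not counted, so its level is uncertain.

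The neural programme that RA raised in the control clones was only in part raised in the Apex1 clone. Pax6, which marks neural progenitors, read 6.52 and 7.69 CPM in EBs and 8.60 and 9.38 CPM in EBs + RA and was not called (log2 fold change 0.34, SE 0.43, adjusted p = 0.553). In the controls it read 0.664, 1.11 and 0.976 CPM in control EBs and 128, 129 and 47.8 CPM in control EBs + RA (difference -6.50, SE 0.63, adjusted p = 0.000415). It was therefore higher than in the controls without RA and lower with it, with no overlap on either side. Of 17 neural stem and progenitor genes 7 rose and 3 fell (control 13 and 1). Of their responses 9 were lower and 0 higher than in the controls, against 5.70% and 10.0% of all genes tested. Sox2, Fabp7 and Prom1 fell, and Prom1 was lost with the replicate numbers as a block (adjusted p = 0.103). This count was 1 without EBs replicate 2 and 1 without RA replicate 1. Nes rose from 15.3 and 17.6 CPM to 35.3 and 46.9 CPM (1.32), Pou3f3 by 3.71 and Zic1 by 3.23. Hes5, a Notch target of neural stem cells, read 0.259 and 0.244 CPM with RA in the clone, where it was not called (adjusted p = 0.215), and 9.26, 12.0 and 4.08 CPM in control EBs + RA (difference -5.38, SE 1.58, adjusted p = 0.0508).

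Proneural factors were switched on at low levels. Among 17 tested, 8 rose and 3 fell, while in the controls 16 rose. Neurog2 had 0 counts in both EB libraries and 48 with RA, at least 15.6-fold higher. It reached 0.995 and 0.872 CPM, against 14.0, 13.3 and 5.37 CPM in control EBs + RA. The difference of the responses was not called for Neurog2 (adjusted p = 0.909), and both genotypes started at or near 0. Neurog1 (0 to 36 counts) and Neurod4 (0 to 14 counts) were at least 12.2-fold and 4.51-fold higher. Neurod1 fell (3.32 and 3.83 CPM to 0.778 and 0.662 CPM, log2 fold change -2.31, SE 0.41, adjusted p = 0.000667) where the controls raised it by 3.12 (difference -5.43, SE 0.52, adjusted p = 0.000125). Dll3 and Hes6, of the Notch pathway that proneural factors drive, also fell (-1.25 and -0.86), and the Hes6 call was lost without RA replicate 2.

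Genes of differentiated neurons fell more often than they rose, 10 against 4 of 24, with a median of -0.52. In the controls 17 rose and 4 fell (median 2.00), and 18 responses were lower in the Apex1 clone and 1, Mapt, higher. The number that fell was 6 without RA replicate 2. Dcx, which marks young migrating neurons, rose from 0.164 and 0.232 CPM to 2.03 and 3.03 CPM (log2 fold change 3.65, SE 0.36, adjusted p = 1.09e-05) but stayed below the 33.5, 27.3 and 25.7 CPM of the controls. Stmn4 and Syt1 rose by 3.48 and 3.01. The neuronal filament genes Ina and Nefl and the tubulin regulator Stmn2, which were present in EBs, had log2 fold changes of -3.25, -2.71 and -2.82. Ina, for example, read 73.7 and 71.6 CPM in EBs and 8.43 and 6.87 CPM in EBs + RA. Elavl3 was not called in the clone (-0.37, adjusted p = 0.394) and rose in the controls (difference -3.44, SE 0.43, adjusted p = 0.000539). Tubb3 read 30.5 and 28.6 CPM in EBs and 19.2 and 13.3 CPM in EBs + RA (log2 fold change -0.87, SE 0.38, adjusted p = 0.0899), a call that was lost without either EB library and without either RA library. In the controls it rose by 1.89 (difference -2.76, SE 0.49, adjusted p = 0.00776). Control EBs + RA replicate 3 was lower than the other controls for Pax6, Neurog2, Elavl3 and Tubb3, for example at 61.8 CPM of Tubb3. Without it the genes whose RA response differed numbered 4574 in place of 2646.

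**Figure D3:**
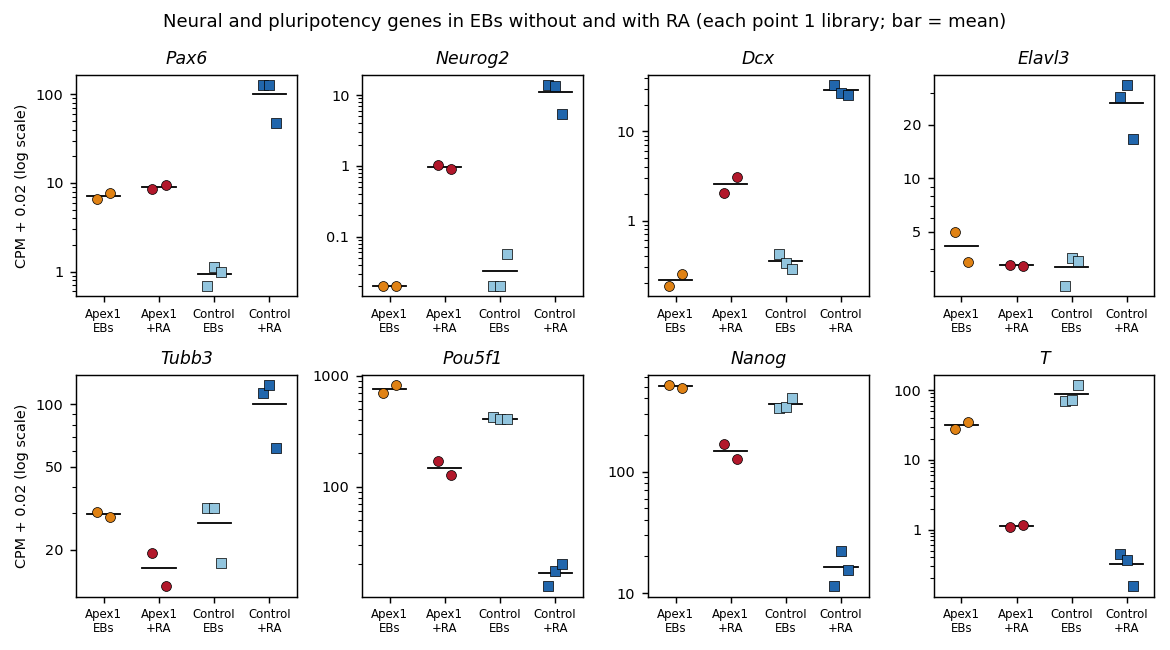
Level of 8 neural, pluripotency and streak genes (log axis, CPM with 0.02 added) in each library, drawn as in the plot of the retinoid genes. With RA the Apex1 libraries (red circles) lay below every control library for Pax6, Neurog2, Dcx, Elavl3 and Tubb3 and above every control library for Pou5f1, Nanog and T.

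Regional genes of the neural tube followed. Of 23 tested 14 rose and 1, Phox2a, fell, against 14 and 3 in the controls. This count rests on low levels and was 9, 7 and 8 without EBs replicate 1, EBs replicate 2 and RA replicate 1. Irx3, a factor of intermediate neural tube, rose from 2.17 and 2.74 CPM to 20.7 and 15.6 CPM (2.88). Forebrain genes rose in 3 of 7, with Emx2 up by 5.43, and Otx2 was the one that fell. At the midbrain-hindbrain boundary 3 of 10 rose (Pax2, Lmx1b and Wnt1) and 3 fell (Fgf8, Fgf17 and Spry2), and the latter were 5 without control EBs + RA replicate 3. Fgf8 read 10.3 and 11.5 CPM in EBs and 0.346 and 0.349 CPM in EBs + RA (log2 fold change -4.96, SE 0.34, adjusted p = 8.53e-07). Wnt1 had 0 counts in EBs and 22 with RA, at least 6.64-fold higher.

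Neural crest genes, which direct the cells that leave the neural folds and form the face, peripheral nerves and pigment, rose in 25 of 41 and fell in 9, with a median of 1.5. In the controls 21 rose and 12 fell (median 0.65). The differences went both ways, 10 higher and 6 lower in the Apex1 clone. In EBs + RA both Apex1 libraries lay below all control libraries for 22 of the 41 genes (53.7%), against 26.4% of all genes tested. They lay above all control libraries for 9 (22%), against 25.7%. Ednrb, the endothelin receptor of crest, rose by 5.03, and Sox9 read 0.410 and 0.966 CPM in EBs and 15.7 and 18.3 CPM in EBs + RA (log2 fold change 4.61, SE 0.40, adjusted p = 6.66e-06). Tcfap2b rose from 0.0410 and 0.116 CPM to 1.04 and 1.64 CPM (4.01), below the 26.7, 20.9 and 8.16 CPM of control EBs + RA, though the difference of responses was not called (-3.03). Pax3, a factor of the plate border, reached 0.995 and 1.26 CPM (log2 fold change 2.11, SE 0.67, adjusted p = 0.0239), and 20.7, 16.3 and 6.70 CPM in the controls (difference not called, -1.60). The zinc-finger genes Zic5 and Zic2 were among the largest falls of the list (-3.89 and -3.32). Foxd3, a gene of crest and of pluripotent cells, fell from 14.1 and 16.0 CPM to 2.33 and 1.81 CPM (-2.86). Sox10 was not called (0.23, adjusted p = 0.758).

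Cardiac and muscle genes rose in 12 of 22 and fell in 2 (Ryr2 and Tnni3), whereas the controls raised 6 and lowered 7, and 10 responses were higher in the clone. Gata5, a factor of heart and gut, had 0 counts in both EB libraries and 877 with RA, at least 284-fold higher, reaching 16.9 and 16.9 CPM against 9.42, 9.81 and 9.29 CPM in control EBs + RA. Nkx2-5, the early heart factor, rose by 3.15 to 2.55 and 1.08 CPM. The smooth muscle gene Tagln read 13.4 and 18.4 CPM in EBs and 98.8 and 86.2 CPM in EBs + RA (log2 fold change 2.54, SE 0.18, adjusted p = 9.13e-07) and was not called in the controls (0.15), which started at 138, 139 and 135 CPM. Troponin T (Tnnt2) stayed below 1 CPM in every Apex1 library. Endothelial genes rose in 11 of 19 and fell in 3 (Aplnr, Pecam1 and Tek, at -2.72, -1.28 and -1.10). Pecam1 went from 61.6 and 59.0 CPM to 24.9 and 24.8 CPM and Tek from 22.3 and 22.1 CPM to 10.2 and 10.5 CPM. The risers named next were at lower levels. Emcn had 0 counts in EBs and 95 with RA, at least 30.6-fold higher, and Fli1 and Tie1 rose by 3.02 and 2.25. The rises numbered 7 in the fit of all 22 EB libraries. Markers of primitive blood were scarce. Of 10 tested 2 rose (Gata2 by 3.40 and Nfe2 by 1.15), and the Nfe2 call was lost without either EB replicate and without RA replicate 2. The macrophage markers C1qa, C1qb and C1qc had 0 counts in all 4 libraries, and 2 of the 6 tested rose (Csf1r and Cd14) while 2 fell (Itgam and Laptm5, 1 without RA replicate 1).

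The counts of visceral and definitive endoderm genes depended on single libraries. Of 26 visceral and definitive endoderm genes 9 rose and 2 fell (Cer1 and Spink3), and the rises numbered 4 and 3 without EBs replicates 1 and 2. In the controls 4 rose and 11 fell (median -0.98, against 0.56 in the clone), and 5 responses were higher and 0 lower in the clone. In EBs both Apex1 libraries lay below all control libraries for 20 of the 26, against 28.8% of all genes tested. Fgb, a fibrinogen gene, rose from 0.779 and 0.619 CPM to 15.6 and 10.8 CPM (log2 fold change 4.23, SE 1.17, adjusted p = 0.0207). Cdx1 and Sox7 rose by 3.84 and 2.24. Afp, the fetal serum protein of visceral endoderm, was not called (0.04, SE 1.08). Of the parietal endoderm and basement membrane genes 10 of 15 rose. Plat, a plasminogen activator of parietal endoderm, read 3.40 and 4.33 CPM in EBs and 100.4 and 103 CPM in EBs + RA (log2 fold change 4.71, SE 0.20, adjusted p = 1.83e-08), and the collagen chaperone Serpinh1 rose from 101 and 125 CPM to 871 and 748 CPM (2.84). Ecm1, which encodes an extracellular matrix protein and was among the 10 largest rises, read 3.61 and 2.98 CPM in EBs and 362 and 362 CPM in EBs + RA (log2 fold change 6.78, SE 0.38, adjusted p = 1.07e-06).

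Epithelial genes rose in 10 of 15 in the Apex1 clone and in 1 in the controls, and 7 responses were higher in the clone. The keratin gene Krt8 read 74.3 and 92.4 CPM in EBs and 603 and 495 CPM in EBs + RA (log2 fold change 2.72, SE 0.24, adjusted p = 8.05e-06). The control libraries read 736, 1146 and 886 CPM in control EBs and 553, 492 and 727 CPM in control EBs + RA (difference 3.36, SE 0.30, adjusted p = 0.000129). With RA the genotypes overlapped, and without RA the clone lay below every control library. Krt18 followed (56.5 and 75.0 CPM to 429 and 416 CPM). Esrp1, an epithelial splicing factor, fell (-2.66). Trophoblast genes rose in 7 of 16 and none fell, while in the controls 7 rose and 1 fell. Both Apex1 libraries lay below all control libraries for 12 of the 16 in EBs (75%) and for 11 in EBs + RA (68.8%). The shares of all genes tested were 28.8% and 26.4%. With RA they lay above all control libraries for 4 (25%), against 25.7%. Gata3 read 3.48 and 3.63 CPM in EBs and 44.4 and 41.7 CPM in EBs + RA (log2 fold change 3.59, SE 0.17, adjusted p = 5.07e-08) and Krt7 rose by 3.44, while the placental lactogen gene Prl3b1 had 0 counts in all 4 libraries. Of the germline genes 5 of 20 rose and 4 fell. The share called was 45.0%, near the 44.4% of all genes tested, of which 24.5% rose and 19.9% fell. Sycp3, Nanos3 and Dmc1 were among those that fell (-1.51, -1.48 and -0.85), Sycp3 from 13.4 and 13.6 CPM to 4.24 and 5.26 CPM. Rec8, the meiotic cohesin, read 22.5 and 22.7 CPM in EBs and 226 and 215 CPM in EBs + RA (log2 fold change 3.28, SE 0.22, adjusted p = 9.36e-07), and Dazl rose by 1.70 where the control response was -0.03. Both germline counts moved, the rises to 3 without EBs replicate 2 and the falls to 2 without EBs replicate 1 or either RA replicate.

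Of the Wnt ligands and feedback genes 7 of 23 rose and 5 fell (3 without EBs replicate 2), while 11 fell in the controls. Lef1, a nuclear partner of β-catenin, fell from 52.3 and 53.5 CPM to 7.35 and 8.40 CPM (log2 fold change -2.74, SE 0.30, adjusted p = 4.5e-05), and Wnt4 and Sfrp5 each rose by 2.82. Wnt6 rose from 1.35 and 0.657 CPM to 10.4 and 4.74 CPM (2.91). Among hedgehog, BMP and FGF genes 14 of 25 rose and 7 fell. The hedgehog targets Gli1 and Ptch1 fell in the clone (-1.14 and -0.95), whereas Gli1 rose in the controls by 1.83 (difference -2.98, SE 0.54, adjusted p = 0.00837). The ligand gene Shh rose at a low level, to 3.11 and 2.02 CPM. The BMP targets Id1 and Id2 rose by 2.24 and 1.97. The FGF-pathway genes Spry4, Etv5 and Etv4 fell (-4.56, -2.41 and -1.75), Spry4 from 67.5 and 70.4 CPM to 3.42 and 2.48 CPM.

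Of 26 genes of the p53 response 17 were not called, 7 rose and 2 fell. The share called was 34.6%, against 44.4% of all genes tested, of which 24.5% rose and 19.9% fell. Phlda3, Fas and Bbc3 rose by 1.47, 1.29 and 1.10, and Cdkn1a, the p21 inhibitor of the cell cycle, read 148 and 142 CPM in EBs and 231 and 187 CPM in EBs + RA (log2 fold change 0.53, SE 0.13, adjusted p = 0.006). The Cdkn1a call was lost without EBs replicate 2 and without RA replicate 1. Pmaip1 (NOXA) and Trp53 fell (-1.51 and -0.93). In EBs + RA both Apex1 libraries lay above all control libraries for 24 of the 26 p53 targets, and in EBs for 17, against 25.7% and 27.7% of all genes tested. Base excision repair genes tended down, with 10 of 24 falling and 1, Smug1, rising by 0.87. Neil2 fell from 15.3 and 16.5 CPM to 5.10 and 6.90 CPM (-1.40), Parp1 by a log2 fold change of -1.22 and Mutyh of -0.91. The 13 mitochondrially encoded genes had 0 counts in all 33 libraries and could not be tested. Of the cell cycle genes 11 of 24 fell and 6 rose. Mycn, Cdk6 and Ccnd1 fell most (-1.90, -1.64 and -1.53), and the inhibitors Cdkn1c, Cdkn2c and Cdkn2b rose (2.78, 2.52 and 2.26). Mki67 was not called (0.25).

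Where the RA response of the Apex1 clone differed from that of the controls was tested in the same fit. A difference from the controls does not make a change particular to this clone. Of 16848 genes 2646 differed (15.7%), 1686 with a higher response in the Apex1 clone (10.0%) and 960 with a lower one (5.70%). Of the genes raised in the clone 2633 were also raised in the controls (63.9% of those raised in the clone, 67.1% of those raised in the controls), and of those lowered 2195 (65.4% and 59.2%). Opposite calls were few, with 165 genes raised in the clone and lowered in the controls and 69 the other way. Among called genes averaging 2 or more log2 CPM over the 10 libraries, the 6 largest higher responses were Hoxa9, Hoxc8, Hoxd9, Cdx2, Tbx4 and Amn. Cdx2, a factor of the posterior embryo and the trophoblast, read 9.22 and 11.4 CPM in EBs and 8.95 and 5.82 CPM in EBs + RA and 84.1, 78.2 and 49.8 CPM in control EBs and 3.75, 2.16 and 1.76 CPM in control EBs + RA (difference 4.30, SE 0.46, adjusted p = 0.000414). It was not called in the clone (-0.49, though with the replicate numbers as a block it was, at adjusted p = 0.0833) and fell in the controls. Tbx4, a hindlimb and allantois factor, and Amn, a receptor subunit of visceral endoderm, differed by 4.07 and 4.00. Neither was called in the clone (-0.11 and 0.25), and both fell in the controls (-4.19 and -3.75). Within the same limit the 6 largest lower responses were Miat, Pax6, Fgf15, Gpr98, Crmp1 and Elavl3. Miat, a long noncoding RNA abundant in neurons, read 6.85 and 6.88 CPM in EBs and 1.77 and 2.23 CPM in EBs + RA and 2.50, 1.95 and 1.65 CPM in control EBs and 73.3, 97.1 and 38.3 CPM in control EBs + RA (difference -6.83, SE 0.53, adjusted p = 0.000102). Crmp1, a cytoskeletal protein of growing axons, differed by -3.48 and Gpr98 by -3.55. The Fgf15 difference (difference -3.90, SE 1.01, adjusted p = 0.0501) was lost without any 1 of the 4 Apex1 libraries. In the Neil1 and Neil2 clones Miat responded by -4.41 and -4.17, Pax6 by 0.17 and 1.21 and Fgf15 by -6.16 and -5.06. Gpr98 responded there by -1.09 and -0.56, Crmp1 by -2.60 and -2.40 and Elavl3 by -0.58 and -1.45. Of these 6 only Miat was called different from the mean of the Neil clones (2.52).

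The number of differing genes leaned on single libraries, and it was 3581 with the replicate numbers as a block. It was 1508 without EBs replicate 1, 1196 without EBs replicate 2 and 1332 without RA replicate 1 of the Apex1 clone, and 4574 without control EBs + RA replicate 3. The levels behind the differences are described without a test, since the same values chose the genes. Of the 1686 genes with a higher response, 1077 (63.9%) had both Apex1 EB libraries below all 3 control EB libraries, against 28.8% of all genes tested, and 1133 (67.2%) had both Apex1 RA libraries above all control RA libraries, against 25.7%. Of the 960 with a lower response 608 (63.3%) lay above the controls in EBs, against 27.7%, and 711 (74.1%) lay below them in EBs + RA, against 26.4%. Krt8 and Cyp26a1 are examples whose libraries overlapped between the genotypes with RA and not without it, and for Pou5f1 the clone was higher in both.

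**Figure D4:**
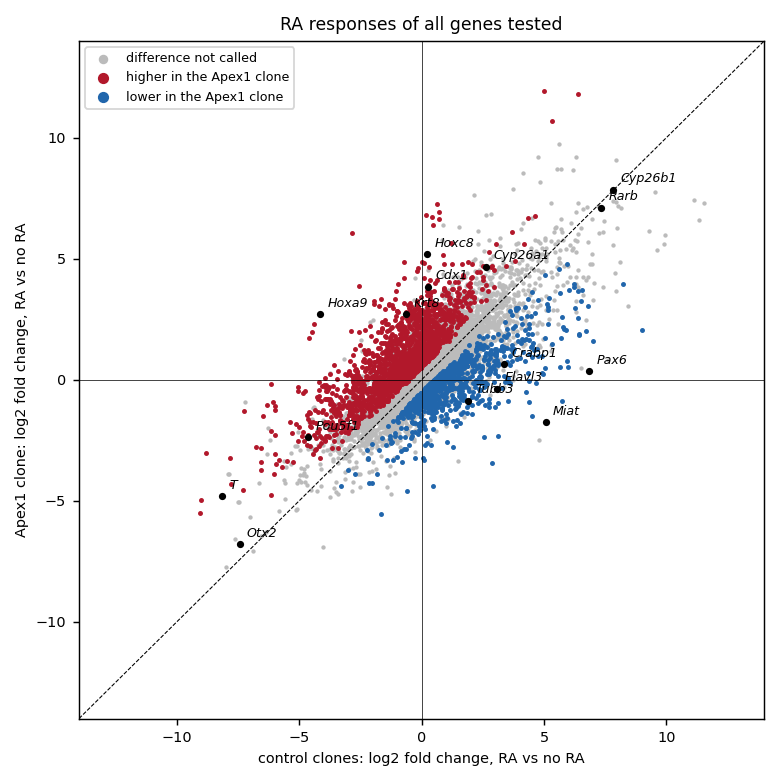
Log2 fold change with RA in the control clones (x) and in the Apex1 clone (y) for the 16848 genes tested, with genes whose responses differed in red (1686 higher in the clone) and blue (960 lower) and the dashed line at equal responses. Genes without counts in an arm sit at values set by the prior count of the fit, and labelled genes include Cyp26b1 and Rarb near the line, Hoxa9 and Cdx1 above it and Pax6 and Miat below it.

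**Figure D5:**
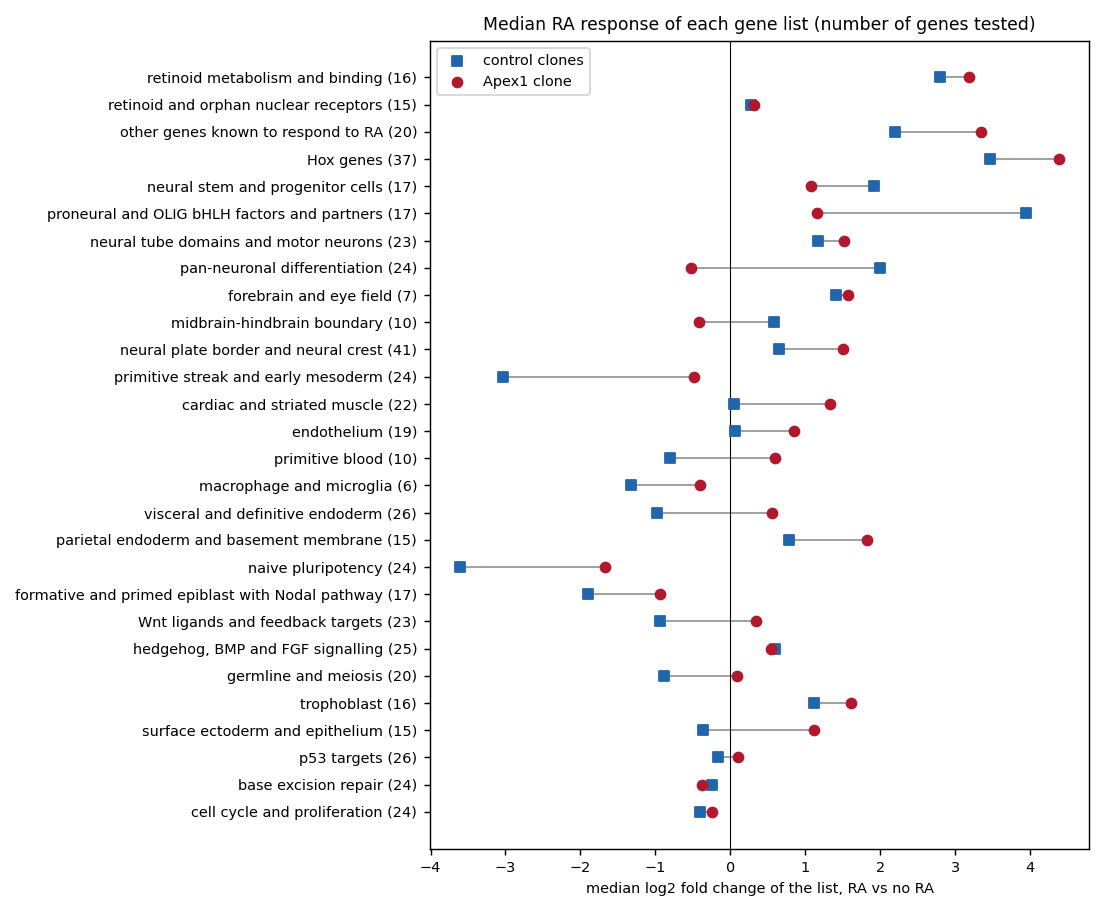
Median log2 fold change with RA of each of the 28 gene lists with tested members (number tested in parentheses) in the Apex1 clone (circles) and the control clones (squares). The medians lay close together for the retinoid lists (3.19 and 2.80 for retinoid metabolism) and furthest apart for proneural and pan-neuronal genes, the streak, and naive pluripotency.

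The Neil1 and Neil2 clones allowed the same question with other repair mutants. In the fit of all 22 EB libraries 944 of 17515 genes (5.39%) had an RA response in the Apex1 clone that differed from the mean of the Neil1 and Neil2 responses, 597 higher (3.41%) and 347 lower (1.98%). That count was 160 without Apex1 EBs replicate 1, 93 without EBs replicate 2, 158 without RA replicate 1, 473 without RA replicate 2 and 1596 without Neil2 EBs replicate 1, so it rests on few libraries, and with the replicate numbers as a block it was 2098. Many patterns that set the Apex1 clone apart from the controls were not called different from the Neil clones. Pax6 responded by 0.17 and 1.21 in the Neil1 and Neil2 clones, Hoxa9 by 3.21 and 2.93 and Krt8 by 2.30 and 1.89, beside 0.34, 2.72 and 2.72 in the Apex1 clone and 6.84, -4.14 and -0.64 in the controls. The levels of Hoxa9 were not alike. Every Neil library without RA read 0.422 CPM or less. With RA the Neil1 clones read 1.04, 1.59 and 1.40 CPM and the Neil2 clones 1.48, 2.37 and 1.44 CPM. The Apex1 clone with RA read 19.2 and 21.1 CPM. A missed call does not show that the responses were alike. Of the 24 pan-neuronal genes 4 (Mapt, Syt1, Dcx and Myt1) had a higher response in the Apex1 clone and 1 (L1cam) a lower one, and of 41 crest genes 7 a higher and 0 a lower one.

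Among called genes averaging 2 or more log2 CPM over the 22 libraries, the 6 largest higher responses than in the Neil clones were those of Lbh, Bcl11a, Capn6, Car14, Wt1 and Bhmt. Lbh, which encodes a transcriptional cofactor of limb and heart, read 11.5 and 10.2 CPM in Apex1 EBs and 78.7 and 84.2 CPM with RA. In Neil1 clones it read 13.0, 12.6 and 7.02 CPM and, with RA, 4.99, 3.57 and 2.38 CPM, and in Neil2 clones 15.5, 9.26 and 12.9 CPM and 10.3, 5.29 and 5.85 CPM. The difference was 4.10, SE 0.41, adjusted p = 1.8e-05. With RA the Apex1 libraries lay above every Neil library, and the control clones (65.4, 43.9 and 62.8 CPM with RA) lay above them too. Wt1, the Wilms tumour gene of kidney and mesothelium, differed by 3.24, SE 0.51, adjusted p = 0.00301. Among retinoid and receptor genes Nr2f2 and Aldh1a2 rose more in the Apex1 clone than in the Neil clones (7.28 beside 4.43 and 5.30, and 3.34 beside 0.99 and 1.55). Within the same limit the 6 largest lower responses were Phlda2 (-3.07, SE 0.60, adjusted p = 0.0129), Il1r1, Slc4a9, Pmp22, Cd44 and Lrp8. Genes below that level had larger called differences, such as Neurog1, Neurog2, Gata5, Pou3f2 and Tcfap2b above 0 and Msgn1, Hoxc11, Aplnr, Hoxc8 and Hoxc10 below 0. Pmp22, a myelin protein, read 15.7 and 21.9 CPM in Apex1 EBs and 134 and 137 CPM with RA. The Neil1 clones with RA read 182, 151 and 80.6 CPM and the Neil2 clones 145, 220.1 and 208 CPM (-2.70, SE 0.38, adjusted p = 0.00117). In the Hox list 7 genes responded less than in the Neil clones and 1, Hoxc6, more. Hoxc8 was one of the 7 (5.18 beside 10.58 and 7.09), whose response exceeded that of the controls. The calls for Capn6, Bhmt, Phlda2, Il1r1, Slc4a9 and Cd44 were each lost in a setting that left out 1 library.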

How the data were processed

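Poly(A)-selected, unstranded libraries (TruSeq RNA v2, Illumina HiSeq) were mapped by the authors to NCBIM37 (mm9) with TopHat 2.0.9 and counted per gene with HTSeq-count 0.5.4. The deposited values are raw counts, not normalised, and reads with several alignments were not assigned to genes. Unassigned rows (22.82 to 25.21% of the 4 Apex1 libraries) were left out. The 4 Apex1 libraries held 21523742 to 28597214 counts.

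RA responses were fitted with edgeR 4.0.16 (R 4.3.3) by robust quasi-likelihood tests with TMM scaling and filterByExpr, on the 10 libraries of Apex1-mutant and control EBs with a mean for each group. The contrast with the Neil clones used all 22 EB libraries. Adjusted p-values are Benjamini-Hochberg values over all genes tested, and a call needed a value below 0.1 and a log2 change beyond 0.5. SE is the log2 change over the root of F. The coefficient of variation of the fit was 0.161 over the 10 libraries and 0.18 in the 6 control libraries alone, which come from separate clones. It was 0.115 in the Apex1 libraries alone, which are technical duplicates. The duplicates entered the fit as 2 libraries an arm. The spread behind the adjusted p-values was therefore below that of the control clones, and these p-values do not cover the spread between Apex1 clones. On simulated data with the design of the Apex1 RA response the fit called 81 of 100 genes changed by 1 on the log2 scale and 99 of 100 changed by 2, with 15 false calls among 16388 genes. For the difference from the controls it called 64 and 98, with 21 false calls. All changed genes were well expressed and few, while 44.4% were called in the data. Libraries were drawn as independent, with the spread of the fit, so the rates do not cover low counts or duplicates of 1 clone.

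Named genes were the 10 largest rises and falls with mean log2 CPM of at least 2 and no overlap between the arms, up to 3 called genes each way in each of 29 lists (612 genes, 610 matched), the 6 largest differences each way in each comparison with mean log2 CPM of at least 2 over its libraries, fixed marker genes and the Hox genes. Some named genes are not reported here. Other list members named here were chosen after their values were seen. The members, lists and tests were chosen with earlier results of these data known. Bounds for genes at 0 used 3 counts over the group. Replicate numbers mark the same clone in the controls and what they mark in the Apex1 clone is not given in the sources used here. Deviations from group means correlated between same-numbered libraries (0.23, 0.20 and 0.29 in the controls), so the numbers pair the control samples. The main fit has no term for this pairing, and the replicate block has one. In the Apex1 clone 2 libraries an arm give 1 value (0.25), which does not establish a pairing. Alternatives were the Apex1 libraries alone, all 22 libraries, a replicate block, RLE scaling, no filter, DESeq2 1.42.0, stricter thresholds and each library left out. Of 37991 gene identifiers 37205 were named from the NCBIM37 annotation. Guides were matched to NCBIM37, and promoters are RefSeq sequences of GRCm38.p6.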

Additional observations from a re-analysis of the deposited data

Results flagged for a closer look

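Genes are given here because the test of the difference between 2 RA responses passed. Against the control clones (Apex1 minus control, log2) the response of the Apex1 clone was higher for the posterior genes Hoxa9 (6.86), Hoxc8 (4.96), Hoxd9 (4.88), Cdx2 (4.30), Tbx4 (4.07) and Hoxb13 (2.34), and for Hoxb1 (1.43), whose call was lost in the fit of all 22 libraries and without EBs replicate 1. It was higher for the streak, epiblast and pluripotency genes Vrtn (3.52), Mixl1 (3.48), T (3.37), Lefty2 (3.10), Eomes (3.04), Nanog (2.69) and Pou5f1 (2.27). For genes that fell in both, a higher response is a smaller fall. Vrtn, Mixl1 and T changed by -5.52, -4.33 and -4.80 in the clone and by -9.04, -7.81 and -8.16 in the controls. All of them were near the floor in control EBs + RA. T read 0.431, 0.341 and 0.133 CPM there, Vrtn 0.0995, 0.114 and 0.199 CPM and Mixl1 0.265, 0.303 and 0.663 CPM. Without RA the clone lay below every control library for each of them. Mixl1, for example, read 19.4 and 28.3 CPM in EBs of the clone and 105, 66.9 and 109 CPM in control EBs. The response was also higher for Amn (4.00), Ecm1 (2.16), Cyp26a1 (2.03), Gata6 (1.69) and Cdkn1a (0.95). Cdx2, Tbx4 and Amn were not called in the clone (-0.49, -0.11 and 0.25) and fell in the controls (-4.78, -4.19 and -3.75).

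The response was lower for the neural genes Miat (-6.83), Pax6 (-6.50), Gpr98 (-3.55), Crmp1 (-3.48), Elavl3 (-3.44) and Tubb3 (-2.76), and for the growth factor genes Fgf15 (-3.90) and Fgf5 (-1.08). Against the mean of the Neil1 and Neil2 clones it was higher for Lbh (4.10), Bcl11a (3.71), Capn6 (3.33), Car14 (3.32), Wt1 (3.24) and Bhmt (3.21). It was lower for Phlda2 (-3.07), Il1r1 (-2.99), Slc4a9 (-2.98), Pmp22 (-2.70), Cd44 (-2.28) and Lrp8 (-2.27). The Apex1 side of every difference is 1 clone, so the clone and the gene cannot be told apart in any of them.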

How the results depend on the processing

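The number of genes called in the Apex1 RA response stayed within 1.5 times under every alternative except a log2 change beyond 1, which left 4262 (4426 in the controls). Differences from the controls numbered 1623 in the fit of all 22 libraries and 1741 at an adjusted p below 0.05, and ranged from 1196 (without Apex1 EBs replicate 2) to 4574 (without control EBs + RA replicate 3) when 1 library was left out. Differences from the Neil clones numbered 2098 with the replicate block, 1457 with DESeq2 and 456 at an adjusted p below 0.05, and from 93 (without Apex1 EBs replicate 2) to 1596 (without Neil2 EBs replicate 1) with 1 library left out. With the replicate block, which pairs the control samples, differences from the controls numbered 3581 (2309 higher and 1272 lower). The cause of these shifts was not tested. Of the named genes' values under the alternatives 4608 kept their direction and side of the threshold, 22 passed it newly, 135 missed it and 0 turned. The block made the calls of Cdx2, Gpr98 and Hoxc11 in the clone and the Afp and Apex2 differences newly pass, and Prom1 in the clone was lost (adjusted p = 0.103). No other call changed among the values of named genes that were checked with the block. The difference from the controls was checked in this way for only a part of the named genes.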
